A study of Mus musculus with 9 samples.

Results

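The RNA of 52 Wnt pathway genes, out of 45808 gene symbols counted, was compared between Foxd2 mutant and control mK4 cells. The genes are ligands and their secretion factors, an R-spondin, receptors, antagonists, core components, TCF/LEF factors and 2 direct targets. They were picked by symbol and pathway role, with earlier results of these data known. mK4 cells are an established mouse line that stems from the mesenchyme of the embryonic kidney. F7 (n = 4 libraries) is a CRISPR/Cas clone with a homozygous frameshift in Foxd2, which encodes a forkhead transcription factor. Control cells (n = 5 libraries) have the Foxd2 wildtype genotype and went through the same procedure with a guide that targets no gene. Both groups grew in standard medium with serum, and the labels name no added Wnt ligand or inhibitor. F7 is 1 clone, so an effect of the genotype and a property of the clone cannot be told apart. Nothing in the labels says that replicates were grown separately, and the spread behind each p-value may therefore be technical.

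Wnt proteins are lipid-modified ligands that bind frizzled receptors. In the β-catenin branch, frizzled and LRP5 or LRP6 inactivate a destruction complex of Axin, APC and GSK3β, and β-catenin then accumulates and activates genes together with TCF/LEF factors. Other branches run through ROR receptors and the planar polarity proteins. In the developing kidney, Wnt9b and Wnt11 are known from the ureteric bud, and Wnt4 drives the mesenchyme to form epithelium.

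Counts per library ran from 6041556 to 14024859 in F7 and from 10526591 to 16032175 in control. Levels are given as CPM, counts per 1000000 of a library size adjusted by TMM factors, with the SD over the 4 F7 and 5 control libraries. Calls are genes with an adjusted p under 0.05 in edgeR's quasi-likelihood test across the whole table, and log2 fold changes are F7 over control with their standard error (SE). On the first principal component, the F7 libraries lay at -44.8 to -39.5 and the controls at 17.6 to 46.0, with control replicates 3 and 5 nearest to F7. A chi-square per gene between libraries of a group is larger for less alike libraries and also grows with depth. It was 3.4 for F7 replicates 1 and 2, 3.86 for 3 and 4, and 6.87 to 10 between these pairs. In control it ran from 5.35 (replicates 4 and 5) to 36.3 (replicates 1 and 3). Libraries of a group were thus not equally alike. Foxd2 RNA itself was higher in F7, at 18.3 ± 3.78 CPM against 3.73 ± 0.538 CPM in control (edgeR adjusted p = 1.93e-07), and gene counts do not show the frameshift. Pax2, a nephric transcription factor named in the study's design, stood at 49.1 ± 2.38 CPM in F7 and 152.6 ± 10.1 CPM in control (edgeR adjusted p = 1.82e-09). Summed metanephric mesenchyme markers were 394 to 462 CPM in F7 and 548 to 605 CPM in control, with 6 of 11 above 1 CPM in each group, Pax2 and Sall1 called lower in F7, and Wt1, Six2 and Hoxd11 at 0. Summed ureteric bud markers were 107 to 124 CPM in F7 and 230 to 305 CPM in control, with 4 of 8 above 1 CPM in each group, Cdh16 called lower in F7, and Ret and Calb1 at 0. Summed renal stroma markers were 195 to 205 CPM in F7 and 160 to 188 CPM in control, with 3 of 6 above 1 CPM in each group and Tcf21 at 0. Of these 3, Pdgfrb was called higher in F7, at 89.9 CPM against 37.9 CPM in control, whereas Tbx18 was called lower, at 52.4 CPM in F7 against 69.5 CPM in control, and Foxd1 was not called, at 58.5 CPM in F7 and 68.6 CPM in control. Endothelial markers summed to under 1 CPM in all 9 libraries, and immune markers overlapped between groups. The part of these marker differences in the Wnt results was not tested.

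Of the 52 members, 37 had enough reads to be tested, and 21 of those were called, 10 higher and 11 lower in F7. That is 56.8% of the tested members, beside 35.3% of all 14730 genes tested. Because the members were picked with earlier results of these data known, such shares describe the list and are not a test. The median log2 fold change was 0.014 over the tested members and -0.0052 over all tested genes. Among members called with at least a 2-fold difference, 6 were higher (Wnt5b, Wnt7b, Wnt11, Fzd8, Sfrp1 and Tcf7) and 3 lower (Wnt2b, Ror1 and Rnf43). These are 9 of the 37 tested members, beside 7.15% of all genes tested. Groups did not overlap for 19 of the 37, beside 27.6% of all genes tested. Wnt5b and Wnt11 passed the low-count filter only through F7 libraries and Rnf43 only through control libraries, so these had to differ. The counts above include them. Rspo3, Fzd10, Ror2, Dkk2, Nkd1 and Sp5 had no read in any library. A count of 0 allows up to 0.0793 CPM over the F7 libraries and 0.0463 CPM over the controls, by counting error only.

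**Figure D1:**
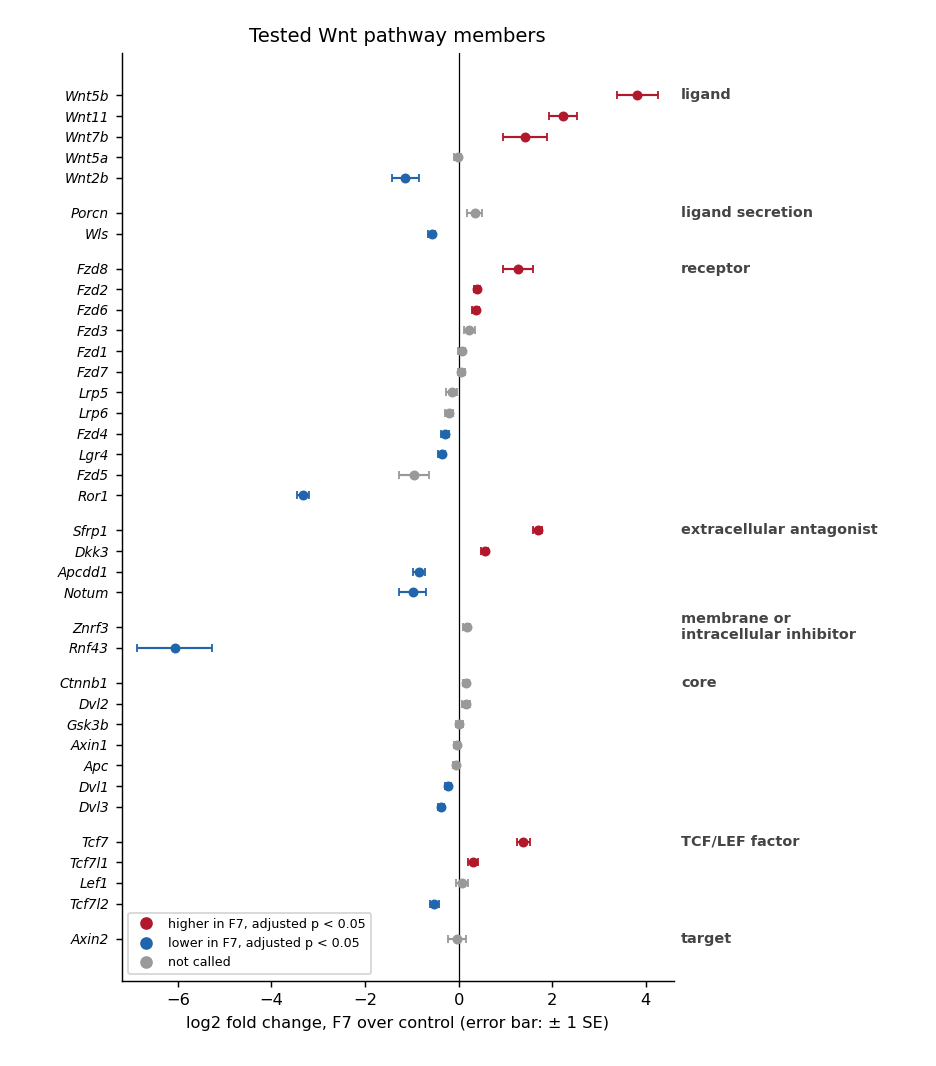
Log2 fold change, F7 over control, with bars of ± 1 SE for the 37 tested members, grouped by role; red marks members called higher in F7, blue those called lower, and grey those not called. Rnf43 at -6.07 and Ror1 at -3.32 lie farthest to the left, and Wnt5b at 3.82 lies farthest to the right.

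Wnt ligands differed between the groups in their makeup, while their summed level was similar. Of 5 tested ligand members, 3 were called higher in F7 (Wnt5b, Wnt7b and Wnt11), 1 was called lower (Wnt2b) and 1 was not called (Wnt5a). The share called was 80%, beside 35.3% of all genes tested. It includes Wnt5b and Wnt11, which passed the low-count filter only through F7 libraries and so had to differ. Wnt5b (ENSMUSG00000030170.14; mm10 chromosome 6, 119432531 to 119544347, minus strand), a ligand known mainly for β-catenin-independent signalling, stood at 2.78, 3.86, 4.37 and 3.52 CPM in F7, against 0.603, 0.148, 0.166, 0.186 and 0 CPM in control. Every F7 library was above every control library, with 132 reads in F7 and 16 in control. Because Wnt5b passed the low-count filter only through F7 libraries, this separation and the adjusted p add no support. In bulk RNA, a change in the number of cells that express a gene and a change in RNA per cell cannot be told apart. The log2 fold change was 3.82 (SE 0.44, edgeR adjusted p = 2.07e-05).

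Wnt11 (ENSMUSG00000015957.12; chromosome 7, 98835112 to 98855195, plus strand), a ligand of ureteric bud tips, stood at 2.34, 2.14, 1.85 and 1.68 CPM in F7 and at 0.482, 0.593, 0.498, 0.186 and 0.337 CPM in control. The groups did not overlap, at low counts of 79 reads in F7 and 28 in control. Wnt11 too passed the low-count filter only through F7 libraries, so it had to differ and its adjusted p adds no support. On the log2 scale the difference was 2.23 (SE 0.30, edgeR adjusted p = 0.000101). A processed pseudogene on the other strand covers 8.80% of the Wnt11 exon length, and the use of strand in counting is not given in the sources used here.

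Wnt7b (ENSMUSG00000022382.15; chromosome 15, 85535437 to 85582473, minus strand), which in the kidney is known from the collecting duct, stood at 26.2, 24.7, 18.15 and 19.1 CPM in F7, against 4.10, 5.04, 20.6, 5.39 and 7.33 CPM in control. Control replicate 3 lay inside the F7 range and the other 4 controls lay below it. The log2 fold change was 1.42 (SE 0.46, edgeR adjusted p = 0.0445). This call was lost when any 1 library other than control replicate 3 was left out, with an adjusted p of up to 0.115. Without control replicate 3 the log2 fold change was 2.05 (edgeR adjusted p = 3.87e-06). Exons of an antisense gene cover 6.61% of the Wnt7b exon length.

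Wnt2b (ENSMUSG00000027840.5; chromosome 3, 104945272 to 104961921, minus strand), known from the stroma of the developing kidney, stood at 1.54, 1.63, 2.86 and 1.53 CPM in F7, against 4.83, 3.11, 2.66, 5.85 and 3.54 CPM in control. F7 replicate 3 reached into the control range, and the other 3 F7 libraries lay below it. Its log2 fold change was -1.14 (SE 0.29, edgeR adjusted p = 0.00831), and with only replicates 3 and 4 of F7 it was no longer called (adjusted p = 0.172). Wnt5a, a widely expressed β-catenin-independent ligand, was at 30.1 to 35.8 CPM in F7 and 32.2 to 35.4 CPM in control. It was not called, at a log2 fold change of -0.02 (SE 0.07) and an edgeR adjusted p of 0.874. Wnt10a, with 21 reads in F7 and 32 in control, and Wnt9b, with 0 reads in F7 and 2 in control, were too low to test.

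Levels of different ligands were compared as CPM per kb of annotated exon length, over 19 Wnt genes of which 12 are not among the 52. Their sum was 17.8 ± 1.48 CPM per kb in F7 and 18.3 ± 1.61 CPM per kb in control, a difference smaller than either SD. Within it, Wnt4 made up 7.31% ± 0.573 in F7 and 38.4% ± 7.10 in control. Wnt7b made up 25.2% ± 3.65 in F7 and 9.24% ± 6.64 in control. The Wnt4 shares of the groups did not overlap, whereas the Wnt7b share of control replicate 3, 20.7%, fell inside the F7 range. Wnt5b made up 7.72% ± 1.49 in F7 and 0.438% ± 0.426 in control. Wnt5a held 24.0% ± 1.10 in F7 and 23.8% ± 2.27 in control. The ligands with the largest mean shares were thus Wnt7b, Wnt5a and Wnt6 in F7, and Wnt4, Wnt5a and Wnt6 in control. Within F7 the Wnt7b, Wnt5a and Wnt6 shares overlapped between libraries, so their order is not resolved.

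**Figure D2:**
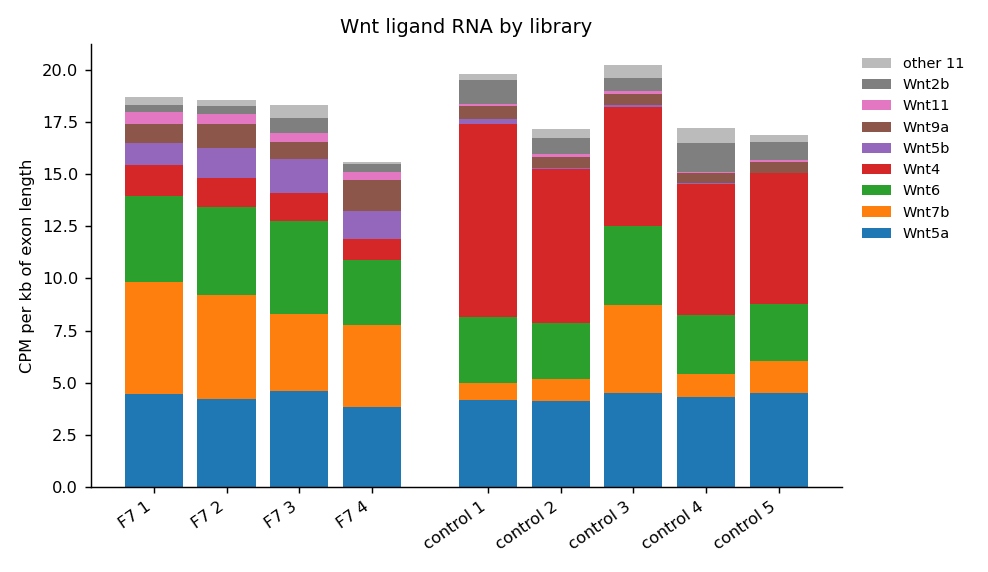
Stacked bars of Wnt ligand RNA in CPM per kb of exon length, 1 bar per library, with the 4 F7 libraries on the left and the 5 controls on the right. Bar heights run from 15.6 to 18.7 in F7 and from 16.9 to 20.3 in control, whereas the Wnt4 segment is 6.54 to 7.92% of the bar in F7 and 28.2 to 46.9% in control.

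Of the genes that serve the export of Wnt ligands, Wls was lower in F7 and Porcn was not called. Wls, the carrier that brings lipid-modified Wnt proteins to the cell surface, stood at 442, 437, 487 and 511 CPM in F7, against 704, 738, 695, 668 and 694 CPM in control. The groups did not overlap, with F7 below control, and the log2 fold change was -0.58 (SE 0.07, edgeR adjusted p = 3.62e-05). Porcn, the acyltransferase that attaches the lipid, was at 4.21 ± 0.314 CPM in F7 and 3.32 ± 0.378 CPM in control. Its groups did not overlap, and the difference of 0.34 on the log2 scale (SE 0.16) had an edgeR adjusted p of 0.116. Rspo3, an R-spondin that keeps frizzled receptors on the cell surface, had no read. Of the other R-spondins, Rspo1 and Rspo2 had no read and Rspo4 had 0 reads in F7 and 7 in control.

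Among 12 tested receptors and co-receptors, 3 were called higher in F7 (Fzd2, Fzd6 and Fzd8), 3 were called lower (Ror1, Fzd4 and Lgr4) and 6 were not called. The share called was 50%, beside 35.3% of all genes tested. Ror1 (ENSMUSG00000035305.5; chromosome 4, 100095791 to 100444765, plus strand), a receptor tyrosine kinase-like protein that binds Wnt5a, stood at 4.24, 4.03, 5.21 and 5.35 CPM in F7. In control it stood at 52.8, 49.9, 41.4, 40.3 and 43.7 CPM. All 4 F7 libraries lay far below the lowest control, with 171 reads in F7 and 3000 in control. The log2 fold change was -3.32 (SE 0.13, edgeR adjusted p = 1.06e-09), a 9.96-fold lower level in F7, and it kept within -3.38 to -3.24 when each library was left out in turn. The 50 nearest tested genes had a median log2 fold change of -0.06. Ror2, the other ROR receptor, had no read in either group.

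Promoter sequences are shown for 3 of the members with the largest differences, because Tcf7 holds the single forkhead motif found among the members and Ror1 and Wnt11 hold the TCF/LEF core. They are RefSeq promoters of build GRCm38.p6, 250 bases before to 50 bases after an annotated start, 5′ to 3′ on the gene's strand. Capitals mark TCAAAG, a TCF/LEF core, or GTAAACA, a forkhead motif. Both motifs were searched on both strands, and no promoter shown holds both. Rnf43, with the largest fold change of the members, has no promoter with either motif, and none of its promoters is shown. The Ror1 promoter (chr4:100095541-100095840, plus strand) has TCAAAG at position 46, and the upstream of 2 Wnt11 promoters (chr7:98834862-98835161, plus strand) has it at position 201, while the other has neither motif. Tcf7, which encodes TCF1, has 2 promoters in the table, upstream at chr11:52282965-52283264 with neither motif, and downstream at chr11:52282546-52282845 with GTAAACA at position 252, both on the minus strand. Of the 4 promoters, Ror1 and the upstream Tcf7 promoter follow the size of the fold change, and the other 2 were chosen after their values were seen.
Ror1: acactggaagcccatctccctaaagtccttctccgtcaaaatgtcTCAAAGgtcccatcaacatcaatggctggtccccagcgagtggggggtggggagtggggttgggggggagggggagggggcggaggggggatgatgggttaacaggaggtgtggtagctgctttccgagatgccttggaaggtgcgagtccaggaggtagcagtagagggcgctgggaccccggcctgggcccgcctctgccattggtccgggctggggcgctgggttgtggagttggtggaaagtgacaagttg
Wnt11: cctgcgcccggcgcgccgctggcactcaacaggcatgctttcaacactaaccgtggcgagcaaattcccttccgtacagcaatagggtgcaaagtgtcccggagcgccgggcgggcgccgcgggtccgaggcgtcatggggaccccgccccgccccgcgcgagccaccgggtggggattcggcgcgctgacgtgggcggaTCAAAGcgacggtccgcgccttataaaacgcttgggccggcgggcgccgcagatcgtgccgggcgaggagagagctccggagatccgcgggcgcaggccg
Tcf7 upstream: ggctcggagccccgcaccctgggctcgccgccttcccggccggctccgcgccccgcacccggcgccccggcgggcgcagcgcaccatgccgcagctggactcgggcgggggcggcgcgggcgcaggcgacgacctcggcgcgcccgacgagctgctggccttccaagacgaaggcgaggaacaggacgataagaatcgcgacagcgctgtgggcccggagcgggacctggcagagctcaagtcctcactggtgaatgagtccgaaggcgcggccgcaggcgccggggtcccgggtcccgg
Tcf7 downstream: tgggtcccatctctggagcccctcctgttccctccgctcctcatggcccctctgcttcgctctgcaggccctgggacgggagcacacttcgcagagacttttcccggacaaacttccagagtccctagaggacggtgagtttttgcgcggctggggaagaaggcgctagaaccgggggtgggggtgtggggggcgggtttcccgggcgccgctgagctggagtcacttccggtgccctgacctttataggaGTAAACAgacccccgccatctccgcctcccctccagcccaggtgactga

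RefSeq promoters matched 33 of the 52 members, with 43 promoters in all. TCAAAG or its reverse complement occurred in 8 of the 43 member promoters, or 18.6%, beside 16.0% of all 32851 promoters in the table. GTAAACA or its reverse complement occurred in 1 of the 43, or 2.33%, beside 3.65% of all promoters. Members with TCAAAG were Ror1, which was lower in F7, Wnt5b and Wnt11, which were higher, Fzd1, Gsk3b and Lef1, which were not called, and Dkk1 and Sp5, which were too low to test. Letters in a window are a description and not a binding site.

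Frizzleds are the Wnt receptors proper, and Fzd6 was the most abundant of them in both groups. Fzd8, on chromosome 18, stood at 2.05, 2.66, 2.185 and 2.91 CPM in F7, against 1.75, 0.445, 0.747, 1.02 and 0.927 CPM in control. The groups did not overlap, though control replicate 1 came close to the lowest F7 library. Fzd8 had a log2 fold change of 1.27, with an SE of 0.33 (edgeR adjusted p = 0.00910), and it was not called with F7 replicates 1 and 2 alone (adjusted p = 0.0513) or 3 and 4 alone (adjusted p = 0.0781). Fzd2 averaged 72.5 ± 2.69 CPM in F7 and 55.5 ± 3.79 CPM in control (log2 fold change 0.39, SE 0.06, edgeR adjusted p = 0.000524). Fzd6 averaged 168.6 ± 8.53 CPM in F7 and 131 ± 14.5 CPM in control (log2 fold change 0.36, SE 0.08, edgeR adjusted p = 0.00351). Neither gene had overlapping groups.

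Fzd4, also a receptor for the non-Wnt ligand norrin, averaged 19.1 ± 0.792 CPM in F7 and 23.2 ± 1.76 CPM in control. Its log2 fold change was -0.29 (SE 0.08, edgeR adjusted p = 0.0167), and the call was lost without F7 replicate 1 or F7 replicate 2, at an adjusted p of up to 0.0612. Lgr4, an R-spondin receptor, stood at 79.0, 78.35, 80.2 and 93.1 CPM in F7, against 113, 115, 101.5, 103.5 and 95.9 CPM in control. All F7 libraries were below all controls, with F7 replicate 4 nearest to them, and the log2 fold change was -0.36 (SE 0.07, edgeR adjusted p = 0.00242). It was not called with F7 replicates 3 and 4 alone (adjusted p = 0.0769).

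Fzd5 stood at 41.3, 49.9, 33.4 and 39.0 CPM in F7, against 81.1, 143, 49.9, 61.6 and 61.5 CPM in control. Control replicate 3 met the highest F7 library and control replicate 2 stood far above the rest. The log2 fold change of -0.95 (SE 0.32) was not called (edgeR adjusted p = 0.0518), but it was called without control replicate 2 or without control replicate 3, at an adjusted p as low as 0.0105. DESeq2 (adjusted p = 0.0143) and limma voom (adjusted p = 0.027) also called Fzd5. Exons of another gene on the other strand cover 17.8% of the Fzd5 exon length. Fzd1, Fzd3, Fzd7, Lrp5 and Lrp6, the last pair being the co-receptors of the β-catenin branch, had log2 fold changes of -0.20 (Lrp6) to 0.23 (Fzd3) and were not called. Lrp6 was called without control replicate 3 (edgeR adjusted p = 0.0334). Fzd9, with 8 reads in F7 and 23 in control, and Lgr5, an R-spondin receptor and stem cell marker with 2 reads in F7 and 1 in control, were too low to test.

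Per kb of exon length, the 10 frizzleds summed to 91.8 ± 2.19 CPM per kb in F7 and 84.0 ± 3.61 CPM per kb in control. The groups did not overlap but nearly met, with the lowest F7 library at 88.7 and the highest control at 88.4 CPM per kb. Fzd6 stood first, with 38.1% ± 1.33 of the sum in F7 and 32.4% ± 3.45 in control. Fzd2 and Fzd7 followed, at 19.8 and 17.2 CPM per kb in F7 and at 15.15 and 16.5 CPM per kb in control, so that their order by mean was reversed between the groups. The level of Ror1 was 0.817 CPM per kb in F7 and 7.92 CPM per kb in control. In control cells this was near the level of Fzd1, 7.96 CPM per kb, whereas in F7 it was below that of Fzd3, 2.18 CPM per kb. Fzd8 was the lowest of the tested receptors in both groups, at 0.410 CPM per kb in F7 and 0.164 CPM per kb in control.

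**Figure D3:**
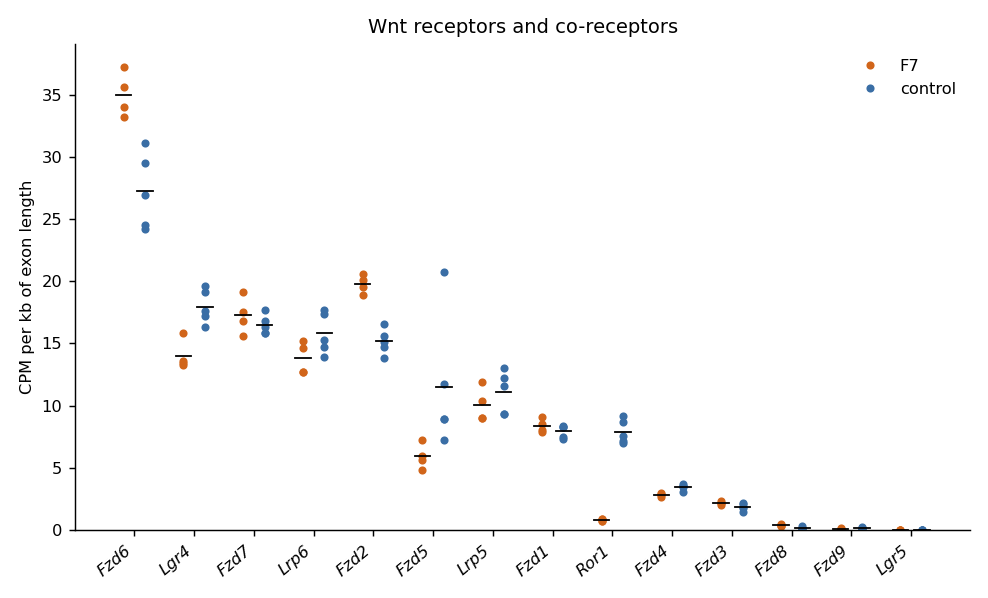
Receptor and co-receptor RNA in CPM per kb of exon length, 1 point per library with a bar at the group mean, F7 in orange on the left of each pair and control in blue on the right. Genes run from the highest to the lowest control mean; Fzd6 lies highest in both groups, and the F7 points of Ror1 lie near 0, at a mean of 0.817 against 7.92 in control.

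Extracellular antagonists bind Wnt proteins or their receptors, or remove the lipid from the ligand. All 4 tested members were called, beside 35.3% of all genes tested, with Sfrp1 and Dkk3 higher in F7 and Apcdd1 and Notum lower. Sfrp1 (ENSMUSG00000031548.7; chromosome 8, 23411502 to 23449632, plus strand), a secreted frizzled-related protein, stood at 86.5, 86.3, 108.7 and 96.5 CPM in F7, against 29.97, 28.7, 29.96, 23.4 and 33.5 CPM in control. The lowest F7 library was well above the highest control. The log2 fold change was 1.69 (SE 0.10, edgeR adjusted p = 4.96e-08), a 3.23-fold higher level in F7, whereas the 50 nearest tested genes on chromosome 8 had a median log2 fold change of -0.38.

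Dkk3, a member of the Dickkopf family that is not known to block LRP6 as Dkk1 does, stood at 103, 99.3, 124 and 114 CPM in F7, against 69.1, 76.6, 78.6, 69.6 and 79.5 CPM in control. Every F7 library exceeded every control, and the log2 fold change was 0.55 (SE 0.08, edgeR adjusted p = 0.000101). Apcdd1, a membrane-anchored inhibitor that binds Wnt and LRP5, averaged 21.1 ± 2.10 CPM in F7 and 37.7 ± 6.24 CPM in control. Its groups did not overlap, and the log2 fold change was -0.85 (SE 0.12, edgeR adjusted p = 0.000160).

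Notum, the enzyme that removes the lipid from Wnt proteins and a known β-catenin target, stood at 0.805, 0.686, 1.008 and 1.38 CPM in F7, against 2.23, 1.70, 1.25, 1.95 and 1.94 CPM in control. F7 replicate 4 lay above control replicate 3, and the other libraries separated by group. On the log2 scale the difference was -0.98 (SE 0.29, edgeR adjusted p = 0.0190), and the call was lost without F7 replicate 1 or F7 replicate 2, at an adjusted p of up to 0.0796. Exons of the antisense gene Notumos cover 29.4% of the Notum exon length, so its counts may hold reads of both. Of the untested antagonists, Sfrp5 had 0 reads in F7 and 17 in control, at least 3.31-fold lower in F7 against a floor of 3 counts over the group. Around Sfrp5, on chromosome 19, the 50 nearest tested genes had a median log2 fold change of -0.42. Dkk1, Wif1 and Sfrp2 had 1 to 5 reads in all libraries together, and Dkk2 had none.

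Summed per kb over 16 antagonist genes, of which 7 are not among the 52, the level was 56.6 ± 5.95 CPM per kb in F7 and 32.9 ± 1.86 CPM per kb in control. The sum describes RNA of genes placed in this class and does not measure antagonism. The lowest F7 library, at 51.5 CPM per kb, lay above the highest control, at 34.9 CPM per kb. Dkk3 and Sfrp1 made up most of it, with Dkk3 at 57.8% ± 0.492 in F7 and 67.5% ± 2.21 in control. Sfrp1 made up 38.2% ± 0.480 in F7 and 20.2% ± 1.64 in control. Apcdd1 made up 2.90% ± 0.366 in F7 and 8.94% ± 1.62 in control.

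Rnf43 and Znrf3 are membrane ubiquitin ligases that remove frizzled receptors from the cell surface, and both are known β-catenin targets. Rnf43 (ENSMUSG00000034177.15; chromosome 11, 87662722 to 87735539, plus strand) stood at 0, 0, 0 and 0.153 CPM in F7, against 2.65, 3.26, 0.747, 2.42 and 3.46 CPM in control. It was nearly lost from F7, with 1 read against 164 in control, and control replicate 3 was the lowest control. Rnf43 passed the low-count filter only through control libraries, so it had to differ and its adjusted p adds no support. The ratio of control over F7 was 95.8, with a 95% exact binomial interval of 16.95 to 3806 that covers counting error only. The fitted log2 fold change was -6.07 (SE 0.81, edgeR adjusted p = 8.30e-05), and without control replicate 1, 2, 4 or 5 the gene fell below the count filter and had no test. Znrf3 averaged 29.35 ± 0.907 CPM in F7 and 26.1 ± 1.36 CPM in control, without overlap, and was not called (log2 fold change 0.17, edgeR adjusted p = 0.0765). Nkd2, which binds dishevelled, had 21 reads in F7 and 72 in control and was too low to test, and its relative Nkd1 had no read.

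**Figure D4:**
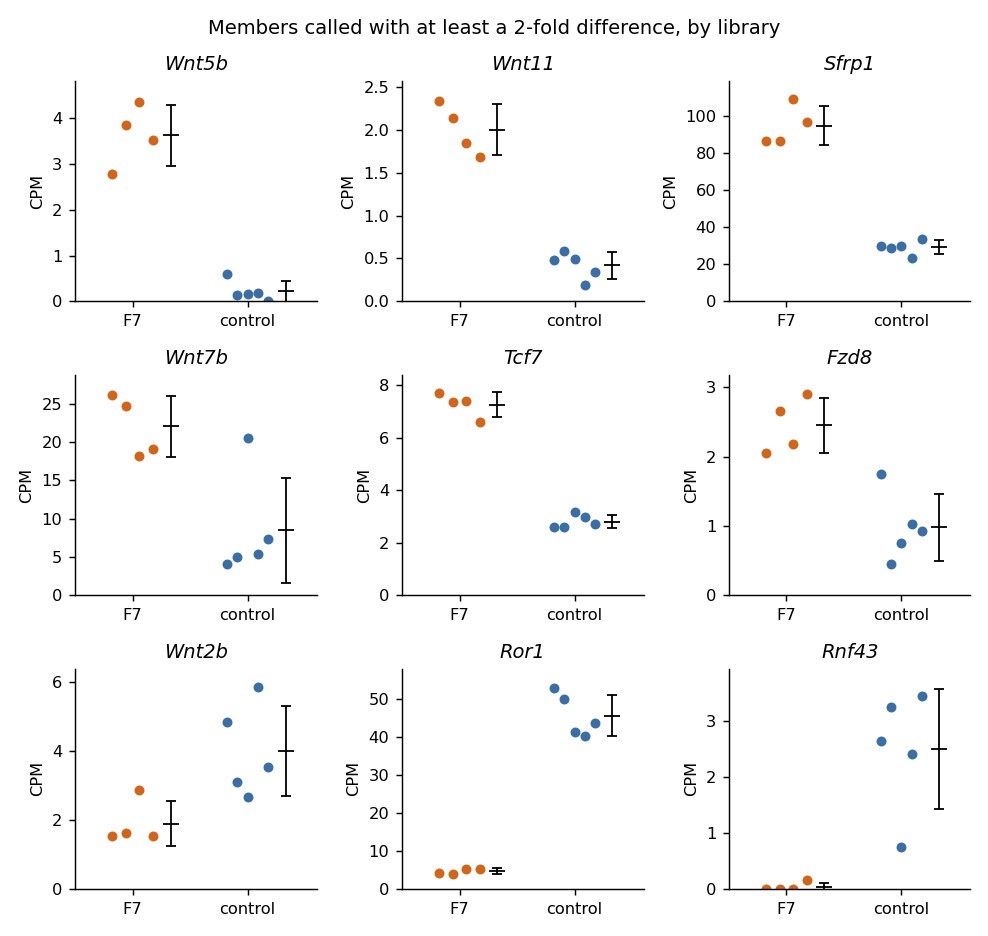
CPM by library for the 9 members called with at least a 2-fold difference, F7 in orange on the left and control in blue on the right of each panel, with the mean and ± 1 SD in black. Control replicate 3 of Wnt7b, at 20.6 CPM, and F7 replicate 3 of Wnt2b, at 2.86 CPM, lie inside the range of the other group, and the groups of the other 7 genes do not overlap. Of these 7, Wnt5b, Wnt11 and Rnf43 passed the low-count filter only through the group where they are higher, so they had to differ.

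Of 7 tested core components, 2 were called, or 28.6% beside 35.3% of all genes tested. Both were lower in F7 and both are dishevelled genes, which carry the signal from frizzled to the destruction complex. Dvl3 averaged 46.0 ± 2.78 CPM in F7 and 59.9 ± 3.42 CPM in control (log2 fold change -0.38, SE 0.07, edgeR adjusted p = 0.000883). Dvl1 averaged 169.0 ± 6.67 CPM in F7 and 197 ± 13.2 CPM in control, and its log2 fold change, -0.22 (SE 0.06, edgeR adjusted p = 0.0192), lay beside a median of -0.27 over its 50 nearest tested genes. The Dvl1 groups overlapped, with F7 replicate 1 at 178.3 CPM and control replicate 5 at 174.3 CPM. The Dvl1 call was lost without F7 replicate 2, 3 or 4, at an adjusted p of up to 0.0567. Dvl2 was not called (log2 fold change 0.15, edgeR adjusted p = 0.162), but it was called without control replicate 2 (adjusted p = 0.0239). Exons of Acadvl on the other strand cover 18.3% of the Dvl2 exon length. Acadvl itself was called higher in F7 (log2 fold change 0.31, edgeR adjusted p = 0.0248), and its part in the Dvl2 counts was not tested.

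Ctnnb1, which encodes β-catenin, stood at 509.3, 478.8, 509.9 and 513 CPM in F7, against 442.5, 440.7, 468.4, 450.0 and 459 CPM in control. F7 libraries lay above all controls by a narrow margin, and the log2 fold change of 0.15 (SE 0.06) was not called (edgeR adjusted p = 0.0582). It was called without control replicate 3 (edgeR adjusted p = 0.0364), with DESeq2 (adjusted p = 0.00443) and with limma voom (adjusted p = 0.0394). Exons of Ulk4 on the other strand cover 14.6% of the Ctnnb1 exon length. Axin1, Apc and Gsk3b, the members of the destruction complex, had log2 fold changes of -0.03, -0.05 and 0.01 and were not called.

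Of the 4 TCF/LEF factors, which bring β-catenin to DNA, Tcf7 and Tcf7l1 were called higher in F7, Tcf7l2 was called lower and Lef1 was not called. The share called was 75%, beside 35.3% of all genes tested. Tcf7 (ENSMUSG00000000782.15; chromosome 11, 52252371 to 52283014, minus strand) stood at 7.68, 7.37, 7.39 and 6.58 CPM in F7, against 2.59, 2.59, 3.15, 2.97 and 2.70 CPM in control. The groups were well apart, and the log2 fold change was 1.38 (SE 0.14, edgeR adjusted p = 8.55e-06). Tcf7l2 stood at 24.7, 23.9, 28.9 and 22.6 CPM in F7, against 40.1, 36.9, 31.0, 33.8 and 36.8 CPM in control. All F7 libraries were below all controls, and the log2 fold change, -0.52 (SE 0.09, edgeR adjusted p = 0.000933), lay beside a median of -0.56 over its 50 nearest tested genes on chromosome 19. Tcf7l1, known as a repressor, averaged 61.55 ± 5.34 CPM in F7 and 49.1 ± 7.88 CPM in control, with overlapping groups. Its log2 fold change was 0.32 (SE 0.11, edgeR adjusted p = 0.0356), and the call was lost without F7 replicate 2, 3 or 4 or control replicate 3, 4 or 5, at an adjusted p of up to 0.0944. Lef1 averaged 23.3 ± 1.35 CPM in F7 and 22.3 ± 4.11 CPM in control (log2 fold change 0.07, edgeR adjusted p = 0.676).

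The feedback target Axin2, a widely used readout of β-catenin signalling, stood at 7.02, 8.49, 4.71 and 6.27 CPM in F7, against 5.49, 6.30, 8.71, 6.22 and 8.26 CPM in control. The groups overlapped over most of their range, and the log2 fold change of -0.04 (SE 0.19) was not called (edgeR adjusted p = 0.897). Sp5, another direct target, had no read. A p above the threshold does not show that Axin2 levels were equal.

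A second list held 77 further Wnt pathway genes of the table, of which 46 were tested. Of these, 25 were called, 10 higher and 15 lower in F7, which is 54.3% beside 35.3% of all genes tested, and the median log2 fold change was -0.03. This list too was written with earlier results of these data known, so its share is a description and not a test. Called genes with at least a 2-fold difference were Lgr6 and Ccnd1, higher in F7, and Wnt4, Dact1 and Prickle2, lower in F7. Wnt4 stood at 6.22, 5.74, 5.71 and 4.28 CPM in F7, against 38.9, 31.0, 24.0, 26.3 and 26.5 CPM in control. The F7 libraries were far below all controls (log2 fold change -2.40, SE 0.16, edgeR adjusted p = 2.65e-07). Wnt9a, with a log2 fold change of 0.97 (edgeR adjusted p = 0.00403), and Wnt6, at 0.40 (adjusted p = 0.0463), were called higher, and the Wnt6 call was lost without any of 7 of the 9 libraries, at an adjusted p of up to 0.123.

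Dact1, which binds dishevelled and antagonizes Wnt signalling, stood at 0.220, 0.171, 0.336 and 0.153 CPM in F7, against 11.8, 20.1, 5.73, 10.3 and 7.84 CPM in control. It was nearly lost from F7, with 8 reads against 740 in control, at a fitted log2 fold change of -5.66 (SE 0.58). Dact1 passed the low-count filter only through control libraries, so it had to differ. Its relative Dact2 was called higher in F7, at a log2 fold change of 0.70 (edgeR adjusted p = 0.00816). Kremen1, a Dickkopf co-receptor, was also called higher, at 0.37 (adjusted p = 0.00565), and Tmem131l was called lower, at -0.28 (adjusted p = 0.0247), with overlapping groups. The Tmem131l call was lost without F7 replicate 1, F7 replicate 2 or control replicate 1, at an adjusted p of up to 0.103.

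The planar polarity genes, which orient cells within a tissue, had 9 tested genes, of which 6 were called lower in F7, 2 higher and 1 not, beside 17.9% called lower and 17.4% called higher among all genes tested. Prickle2, a cytoplasmic polarity protein, stood at 2.12, 1.03, 2.35 and 1.07 CPM in F7, against 16.3, 15.6, 16.4, 20.1 and 17.9 CPM in control. The groups were far apart, and the log2 fold change was -3.39 (SE 0.20, edgeR adjusted p = 4.96e-08). Vangl1, Vangl2, Celsr2 and Invs were called lower, at log2 fold changes of -0.37, -0.26, -0.31 and -0.17, and the formin Daam2 at -0.78. Its relative Daam1 and the cadherin Celsr1 were called higher, at 0.82 and 0.31. The Celsr2 call was lost without F7 replicate 1, F7 replicate 2 or control replicate 1, at an adjusted p of up to 0.0891. The Invs call was lost when any 1 library other than control replicate 3 was left out, at an adjusted p of up to 0.128.

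Among other receptors, Lgr6, an R-spondin receptor like Lgr4, stood at 22.9, 21.1, 31.3 and 24.9 CPM in F7, against 13.03, 11.6, 8.63, 8.64 and 7.92 CPM in control. All F7 libraries were above all controls (log2 fold change 1.30, SE 0.16, edgeR adjusted p = 4.31e-05), so that Lgr4 and Lgr6 were called in opposite directions. Adgra2, an adhesion receptor that acts in Wnt7 signalling together with Reck, was called higher, with overlapping groups, by 0.51 on the log2 scale (SE 0.11, edgeR adjusted p = 0.00337). Reck itself had 5 reads in F7 and 5 in control. Ryk and Ptk7 were not called.

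Of 18 tested core genes on the second list, 6 were called lower in F7, 1 higher and 11 were not called. The share called, 38.9%, was near the 35.3% of all genes tested. The lower ones were Btrc, which marks β-catenin for destruction (log2 fold change -0.73, edgeR adjusted p = 5.075e-05), the corepressors Tle2 (-0.46) and Tle3 (-0.36), the co-activator Bcl9 (-0.32), Tnks (-0.34) and Amer1 (-0.45). The higher one was the kinase Csnk1e (0.22). Median log2 fold changes of the 50 nearest tested genes were -0.51 for Btrc on chromosome 19 and -0.36 for Tnks on chromosome 8. The calls of Tle2, Amer1 and Csnk1e were each lost without at least 3 single libraries in turn, at an adjusted p of up to 0.129, 0.0907 and 0.102.

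Among 6 tested target genes of the second list, 16.7% were called, beside 35.3% of all genes tested. The only one was Ccnd1, which encodes cyclin D1. It stood at 111, 108, 52.6 and 54.6 CPM in F7, against 5.13, 3.78, 13.8, 12.35 and 19.5 CPM in control. All F7 libraries were above all controls, with replicates 1 and 2 near 2-fold above replicates 3 and 4, and the log2 fold change was 2.95 (SE 0.49, edgeR adjusted p = 0.00310). Myc stood at 106, 111, 39.0 and 41.75 CPM in F7, against 44.75, 40.9, 35.5, 59.6 and 79.97 CPM in control. F7 replicates 1 and 2 were above all controls and replicates 3 and 4 lay among them, and Myc was not called (log2 fold change 0.55, SE 0.40, edgeR adjusted p = 0.327). Both genes are also set by many signals other than Wnt.

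**Figure D5:**
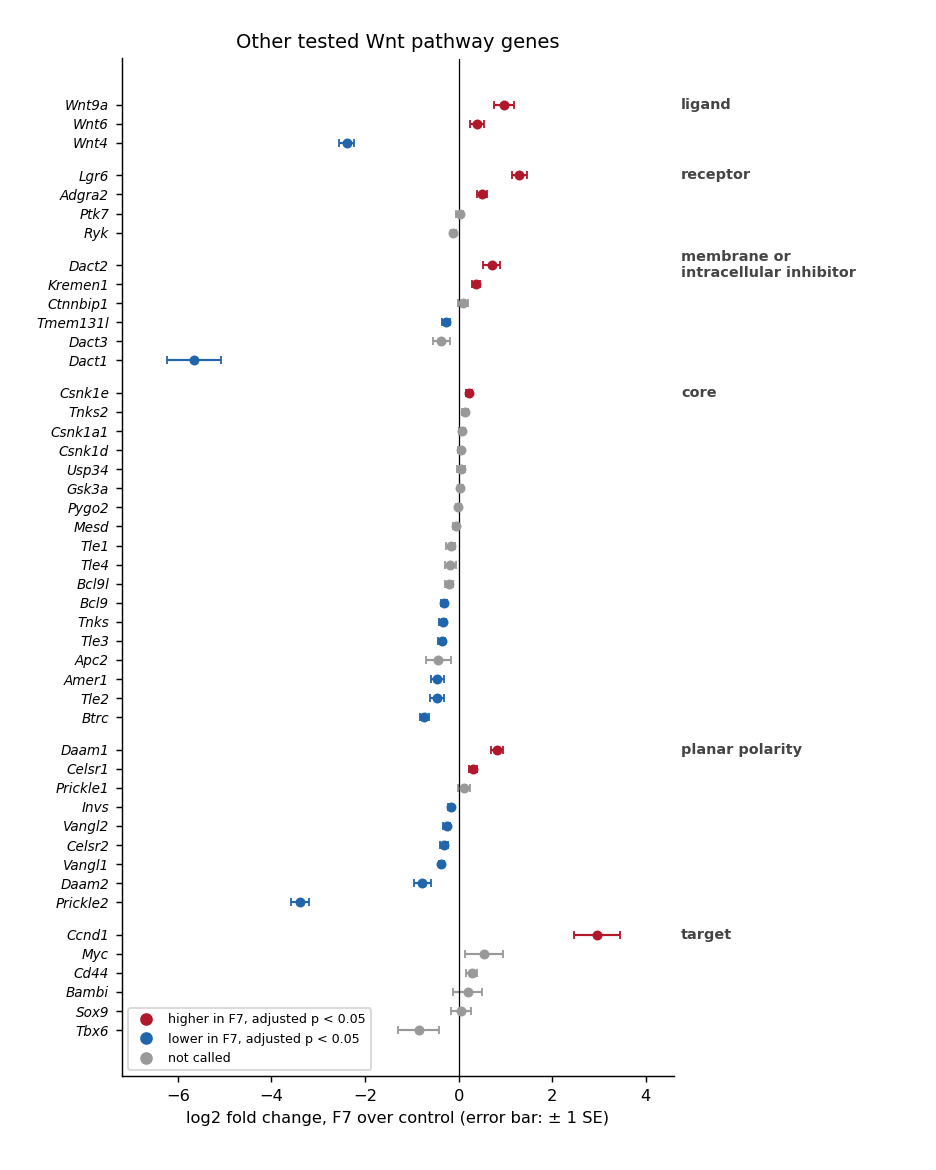
Log2 fold change, F7 over control, with bars of ± 1 SE for the 46 tested genes of the second list, grouped by role and coloured as called higher in F7 (red), called lower (blue) or not called (grey). Dact1 at -5.66 and Prickle2 at -3.39 lie farthest to the left and Ccnd1 at 2.95 farthest to the right.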

How the data were processed

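RNA was sequenced from 4 F7 and 5 control libraries, grouped by sample title. Per the submitters' processing notes, the build was mm10 and the tools featureCounts, R 3.4.3 and DESeq2 1.18.1. For the aligner, the gene annotation and the strand setting, nothing is given in the sources used here. Raw counts per gene symbol, deposited by the authors, were the input of every test. Their deposited normalized signal is the counts divided by a size factor per library and served as a check: raw over normalized values were constant within a library. The authors' deposited comparison, which lists for each gene a log2 fold change and adjusted p-value, served as an added alternative, chosen after seeing the data. Both per-library tables have 1 further F7 column that matches no sample and was not used. Headers of F7 replicates 3 and 4 read mk3 with the raw counts and mk4 with the normalized signal.

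Counts were tested with edgeR 4.0.16 in R 4.3.3 (quasi-likelihood, robust, TMM factors, group only), after filterByExpr with a minimum count of 10 and a total of 15. Benjamini-Hochberg adjustment ran over 14730 genes. The SE is the log2 fold change over the square root of the F statistic. Exon lengths, positions and overlaps came from the GENCODE annotation of mm10, in which 93.9% of tested genes were found by symbol. Wnt members, the second list, the tests and the alternatives were chosen with earlier results of these data known. Named were all members, with values per library for those called at 2-fold or more, the second list's called genes at 2-fold or more, and promoters of the 4 members with the largest fold among those whose mean log2 CPM is 1 or more. Further genes and values per library were chosen after their values were seen. No RefSeq promoter was found for Sfrp1 and Wnt7b, which are 2 of those 4. Alternatives also used DESeq2 1.42.0 and limma 3.58.1.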

Additional observations from a re-analysis of the deposited data

Results flagged for a closer look

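A library was marked where its gap to the nearest other library of its group was large against the range of the group (Dixon's test at the 95% level). This was done for each named gene in each group, and marked 6 of 124 groups; chance marks about 1 in 20. In F7, Wnt2b stood at 2.86 CPM in replicate 3 and 1.53 to 1.63 CPM in the others. Lgr4 stood at 93.1 CPM in F7 replicate 4 and 78.35 to 80.2 CPM in the other F7 libraries. Ctnnb1 stood at 478.8 CPM in F7 replicate 2 and 509.3 to 513 CPM in the other F7 libraries. Rnf43 had its only F7 read in replicate 4, at 0.153 CPM. In control, Wnt7b stood at 20.6 CPM in replicate 3 and 4.10 to 7.33 CPM in the others. Csnk1e stood at 109.5 CPM in control replicate 5 and 90.3 to 94.3 CPM in the other controls.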

How the results depend on the processing

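None of the 21 called members changed direction under any of the 21 alternatives, though Rnf43 had too few reads for a test with the replicate block or without control replicate 1, 2, 4 or 5. RLE and upper-quartile factors, a filter of 1 CPM in 4 libraries, DESeq2, limma voom and the authors' deposited table kept all 21 calls. Of these, DESeq2, limma voom and the authors' deposited table also called Fzd5 and Ctnnb1, upper-quartile factors Ctnnb1, and the 1 CPM filter Fzd5. Omitting the filter lost Wnt7b. No scaling moved the median of all genes by 0.1 on the log2 scale. An adjusted p under 0.01 left 2894 genes, 16 of the 21 members and 9 lower genes of the second list. With F7 replicates 3 and 4 as the F7 libraries, edgeR called 2160 genes, 13 of the 21 members (6 of them lower) and, in the second list, 6 higher and 5 lower; this fit has fewer and shallower libraries. With replicates 1 and 2, 17 of the 21 were kept. Leaving out each library in turn gave 3543 to 5872 genes, 8 to 10 members higher and 8 to 13 lower, and in the second list 8 to 10 higher and 10 to 16 lower. Members that were not called changed sign as follows (log2 fold changes), and the cause was not tested. Axin2 was at 0.0111 with limma voom, 0.031 with the replicate block, 0.158 with F7 replicates 1 and 2, and 0.19 with control replicates 1, 2 and 4. With F7 replicates 1 and 2, Wnt5a was at 0.0075, Fzd7 at -0.0208, Axin1 at 0.0302 and Gsk3b at -0.00869. With control replicates 1, 2 and 4, Wnt5a was at 0.0244 and Gsk3b at -0.0425, and with F7 replicates 3 and 4, Lrp5 was at 0.0125. With each library left out, Axin2 ran from -0.18 to 0.0774, Wnt5a from -0.0441 to 0.0284, Gsk3b from -0.0454 to 0.0534 and Lef1 from -0.00991 to 0.162.

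Same-numbered F7 and control libraries share only a number: correlations of their deviations from the group means ran from -0.0535 to 0.208, and only number 3 matched itself best. With the replicate number as a block, edgeR called 5082 genes, 8 members higher and 10 lower (Wnt7b, Fzd4 and Tcf7l1 lost, Fzd5 gained), and 10 higher and 15 lower in the second list. F7 replicates 3 and 4 are the shallowest libraries, which limits genes with few reads there. They were also more like each other than like F7 replicates 1 and 2.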
